A study of Mus musculus with 24 samples.

Results

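The comparison asked how the diaphragm of Rag1-/- mice responded by day 7 of infection with Trichinella spiralis, relative to the response of wild type (WT) diaphragms. For each gene it took the log2 change from naive to 7 days post injection (7 dpi) in Rag1-/- mice minus the same change in WT mice, so that a positive difference means a stronger rise, or a weaker fall, in Rag1-/- muscle. Each change was taken within the set of arrays to which the strain belonged, 8 Rag1-/- arrays or 16 WT and PHIL arrays, and a gene entered only where at least 2 arrays of each set detected it, at a detection p below 0.01. This left 7978 of the 16593 genes named on the platform, and 10 of the 24 arrays of the series enter the difference directly.

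The arrays were those of 3 Rag1-/- mice at 7 dpi, 2 naive Rag1-/- mice, 3 WT mice at 7 dpi and 2 naive WT mice, 1 array of whole diaphragm RNA per mouse. Infected mice had received 25000 newborn larvae by retro-orbital injection, and naive mice none. All mice were on a C57BL/6 background. WT mice were bought, whereas Rag1-/- mice were bred at a university facility, so genotype, source of the mice and array set cannot be told apart. Responses of PHIL mice, a line whose eosinophils are ablated by a toxin expressed from the eosinophil peroxidase promoter, are given beside some values; they share the array set of WT mice, and their difference from WT shares the WT arrays. Ages and sexes were not given in the sources used here.

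Rag1 is needed to cut and join the segments of antigen receptor genes, and mice without it make no mature T or B cells. Newborn larvae of T. spiralis reach skeletal muscle through the blood and enter single muscle fibres. Damaged fibres are cleared by phagocytes and rebuilt by dividing myoblasts, while fibroblasts lay down new matrix and T cells recruited to the tissue release interferon gamma and type 2 cytokines.

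The Rag1 probe was not detected on any of the 10 arrays and so could not check the genotype. The T cell receptor gene Cd3d could: it was detected on 0 of 3 Rag1-/- arrays at 7 dpi (5.08 to 5.19 on the log2 scale) and on 3 of 3 WT arrays at 7 dpi (6.87 to 7.97), and on no naive array of either strain. The same pattern held for Cd3e and Cd3g. Undetected on every Rag1-/- array, these genes lie outside the 7978. Of 35 T cell genes on the platform 8 were tested, with 0 called and a median difference of -0.07, and 8 more were detected in the WT and PHIL set only. Of the other defining markers, Acta1 and Ckm of striated muscle were detected on every array, and Cd79a of B cells, Ncr1 of NK cells and Epx of eosinophils on none of the 10. Csf1r and Cd68 of macrophages were not analysed here.

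The array sets differed. Median signals ran between 295.1 and 333.4 on Rag1-/- arrays and between 106.3 and 131.9 on WT and PHIL arrays, with 10340 to 11740 and 8847 to 10627 probes detected per array. The Y-linked gene Eif2s3y was detected on 5 of 5 Rag1-/- arrays, but on 2 of 3 WT arrays at 7 dpi and 1 of 2 naive WT arrays, and a covariate for its level is among the alternatives. Liver genes averaged 8.14 on Rag1-/- replicate 1 at 7 dpi and 7.41 on naive replicate 1, against 6.34 to 6.50 on the other 3 Rag1-/- arrays and 5.46 to 6.2 on the 5 WT arrays.

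In all, 269 of 7978 genes were called, 3.37% of those tested, at an adjusted p of at most 0.05 in limma (Benjamini-Hochberg over all genes) and a difference of at least 0.59 (1.5-fold). The response of Rag1-/- mice was higher for 151 genes (1.89%) and lower for 118 (1.48%), against 66 and 912 under median scaling, and 1526 genes had an unadjusted p under 0.05. For the difference between PHIL and WT responses, over arrays of 1 set, 0 genes were called (0%) by limma, with 616 at an unadjusted p under 0.05 and a lowest adjusted p of 0.0794. A fit with a trended and robust prior called 1. When arrays of the comparison were left out in turn, the count lay between 62 (without Rag1-/- naive replicate 1) and 253. It was 109 without Rag1-/- replicate 1 at 7 dpi, 146 without Rag1-/- naive replicate 2, 162 and 126 without WT replicates 2 and 3 at 7 dpi, and 122 and 167 without WT naive replicates 1 and 2. In all, 36 genes kept their call in all 10 such fits, 30 of them higher and 6 lower.

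The responses of the strains differed in width. Between naive and 7 dpi, 2977 genes changed in Rag1-/- muscle (37.3%), of which 1537 rose (19.3% of those tested) and 1440 fell (18%). In WT muscle 2169 changed (27.2%), with 1276 up (16%) and 893 down (11.2%). Median scaling of the arrays gave another split, 1723 up and 1132 down in Rag1-/- and 2765 up and 75 down in WT mice. The SD of the response over the 7978 genes was 0.83 in Rag1-/-, 0.67 in WT and 0.66 in PHIL mice, a ratio of 1.24 for Rag1-/- to WT, and the Pearson correlation of the Rag1-/- and WT responses across genes was 0.84 (rho 0.79; genes are not independent replicates). The median difference over all genes was -0.0012. When the Rag1-/- values were scaled so that both responses had the same SD (called the common scale), 35 genes were called, of which 18 were among the 151 and 14 among the 118. Of the 36 genes called in every fit that left an array out, 16 were called on the common scale and 8 under all 6 scaling alternatives. How far the brighter arrays contribute to the wider response was not tested.

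**Figure D1:**
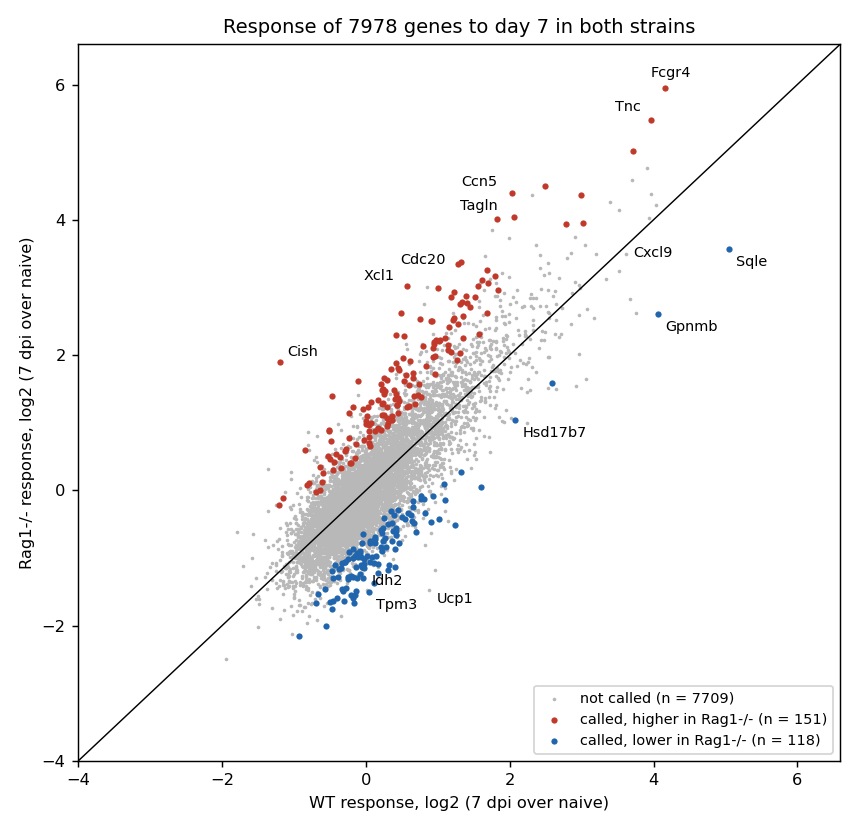
Log2 response to day 7 (7 dpi over naive) of each of 7978 genes in Rag1-/- mice (vertical axis) against WT mice (horizontal axis), with the line of equal response. Red dots are the 151 genes called higher in Rag1-/-, blue dots the 118 called lower and grey dots those not called; most called genes lie farther from 0 in Rag1-/- than in WT mice, whereas Sqle and Gpnmb lie nearer.

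Of the 151 genes called higher, 65 rose in both strains, 64 rose in Rag1-/- mice with no call in WT, 9 fell in WT mice with no call in Rag1-/-, 2 rose in Rag1-/- and fell in WT, and 11 passed in neither strain. Their median response was 1.56 in Rag1-/-, 0.45 in WT and 0.49 in PHIL mice. Of the 118 called lower, 81 fell in Rag1-/- mice with no call in WT, 17 rose in WT mice only, 4 rose in both, 3 fell in both, 1 fell in Rag1-/- and rose in WT, and 12 passed in neither. Their medians were -0.93 in Rag1-/-, 0.09 in WT and -0.49 in PHIL mice. Each of the 269 had Rag1-/- changes at 7 dpi, taken from the naive mean, that did not overlap those of WT mice, as did 41.3% of all genes tested.

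Not every level could be measured. Of the 269 called genes, 171 were detected in each of the 4 groups on at least 1 array. For 34 the undetected group gave a bound in the direction called, for 11 the bound ran the other way, and for 53 the difference had no bound. A fold against an undetected group is written as a bound, with that group set, on each array, to the lowest value among detected probes or to the probe's own value where higher.

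Cish had the largest difference. It encodes a protein that STAT5 induces and that dampens cytokine and growth hormone receptor signalling. On the log2 scale its levels were 12.17, 12.40 and 12.93 in Rag1-/- mice at 7 dpi, against 10.94 and 10.27 in naive Rag1-/- mice. In WT mice they were 9.68, 9.57 and 11.16 at 7 dpi, against 11.73 and 10.93 in naive mice. It thus rose 3.71-fold in Rag1-/- mice, above both naive values in every mouse, and fell 2.29-fold in WT mice, where replicate 3 lay within the naive range. The difference was 3.09 (SE 0.65, adjusted p = 0.0171 in limma). It held with the level of Eif2s3y as a covariate, and was lost without WT naive replicate 1 (2.68, adjusted p = 0.0696) or Rag1-/- naive replicate 2 (2.75, 0.0601), in a fit of the compared groups only, and on the common scale (2.72, 0.0577).

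Socs3, the STAT3-induced inhibitor of signalling by the IL-6 family of cytokines, rose in both strains. Its levels were 10.78, 11.39 and 11.59 in Rag1-/- mice at 7 dpi, against 9.20 and 8.97 in naive ones. WT levels were 8.94, 9.57 and 9.09 at 7 dpi, against 8.46 and 8.04. The 4.50-fold rise in Rag1-/- and 1.93-fold rise in WT mice differed by 1.22 (SE 0.33, adjusted p = 0.0459), and the call was kept in 3 of 10 fits that left an array out (adjusted p up to 0.158, without WT naive replicate 1). Both genes have in their promoters the letters TTCNNNGAA, the core of the sites that STAT proteins bind. The windows are shown because these were the 2 STAT-induced inhibitors among the called genes on the lists; each is 300 bases around the gene start (RefSeq, GRCm38.p6), with matches on either strand in capitals.
Cish, chr9:107296409-107296708, + strand: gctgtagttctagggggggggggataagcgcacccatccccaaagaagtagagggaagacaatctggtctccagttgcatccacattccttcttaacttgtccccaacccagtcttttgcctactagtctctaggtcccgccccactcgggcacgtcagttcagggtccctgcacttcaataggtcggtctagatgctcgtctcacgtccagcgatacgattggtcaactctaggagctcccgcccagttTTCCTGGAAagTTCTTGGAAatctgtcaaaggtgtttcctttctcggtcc
Socs3, chr11:117969317-117969616, - strand: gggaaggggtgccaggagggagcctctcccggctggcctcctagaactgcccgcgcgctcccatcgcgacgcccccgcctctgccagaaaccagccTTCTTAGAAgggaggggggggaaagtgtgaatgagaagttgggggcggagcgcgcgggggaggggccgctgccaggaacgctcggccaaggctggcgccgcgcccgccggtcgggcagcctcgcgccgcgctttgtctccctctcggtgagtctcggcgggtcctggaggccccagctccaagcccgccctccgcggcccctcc
Cish held 2 matches and Socs3 1. Of all 32851 such windows 8.3% held at least 1, as did 11 of the 118 windows found for genes called higher (9.32%), so the share near the background is no result about those genes. Promoter windows were found for 215 of the 269 called genes.

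Ier3, an immediate early gene that protects cells from death, behaved alike in each animal of a group. Its levels were 11.48, 11.54 and 11.84 in Rag1-/- mice at 7 dpi, against 10.76 and 10.94 in naive ones, and 10.50, 10.59 and 10.68 in WT mice at 7 dpi, against 10.74 and 10.91. Only the Rag1-/- response passed the test (1.70-fold up), and the difference of 1.01 (SE 0.20, adjusted p = 0.0128) kept its call on the common scale (0.86, 0.0400) but not without Rag1-/- naive replicate 1 (0.91, 0.0760). Ret, the receptor tyrosine kinase for GDNF family ligands, rose 2.62-fold in Rag1-/- mice and had a response of -0.47 in WT mice that did not pass. Its difference was 1.86 (SE 0.41, adjusted p = 0.0199), lost without Rag1-/- naive replicate 1 (1.49, 0.112) or WT naive replicate 1 (1.79, 0.0660), on the common scale (1.59, 0.0650) and with the replicate number as a block. Ltbr, the receptor of lymphotoxin, was measured in all 4 groups, with a response of 1.23 in Rag1-/- and 0.03 in WT mice; it is named here after its values were seen, as 1 of the 36 genes called in each fit that left an array out, and it was also called on the common scale.

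**Figure D2:**
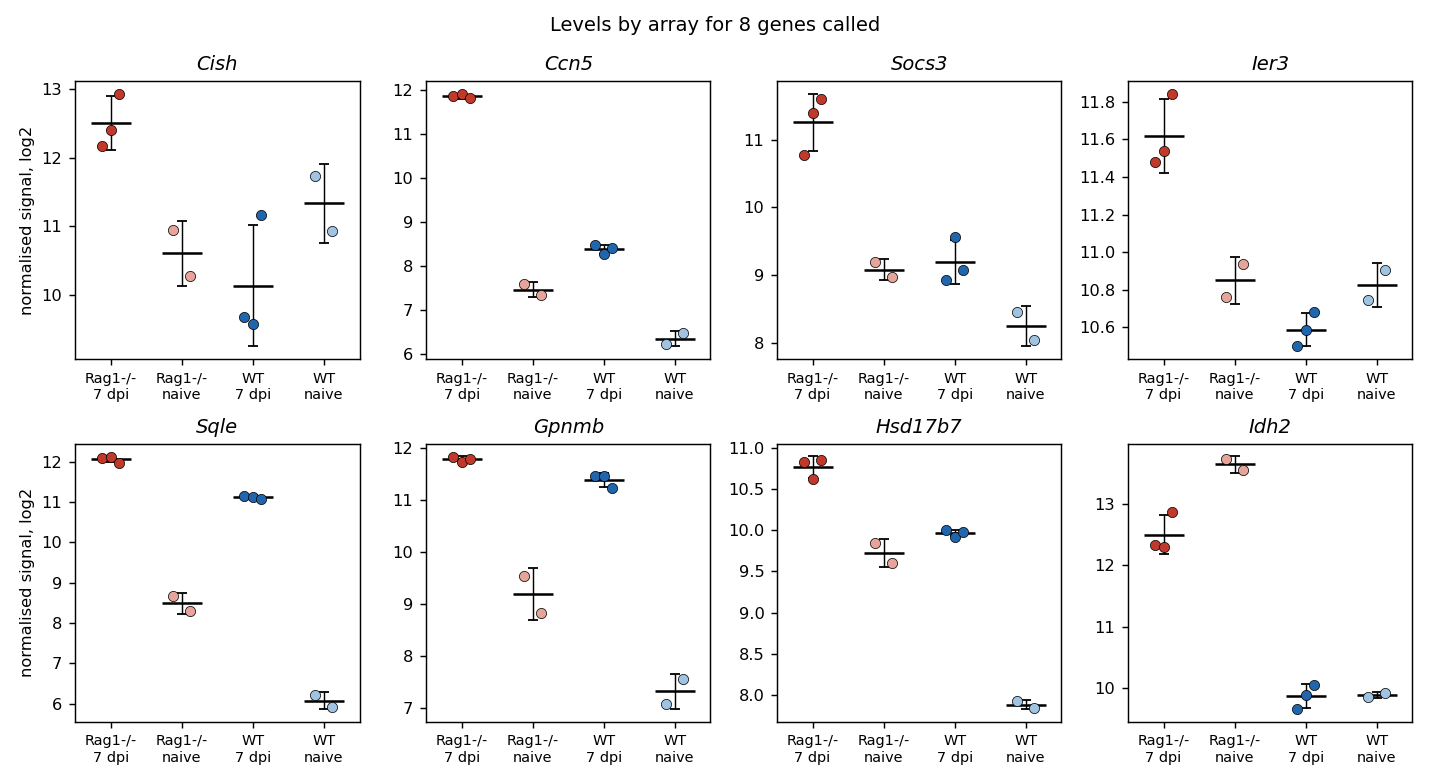
Normalised log2 signal of 8 called genes, 1 dot per array, with group mean and SD (n = 3 at 7 dpi, n = 2 naive), for Rag1-/- and WT mice. Levels should be compared within a strain only, since Rag1-/- arrays were brighter; the step between 7 dpi and naive is larger in Rag1-/- for Cish, Ccn5, Socs3 and Ier3 and smaller for Sqle, Gpnmb and Hsd17b7, and Idh2 steps down in Rag1-/- only.

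Genes of matrix and of contractile stromal cells rose more in Rag1-/- mice in a few cases. Ccn5, a secreted matricellular protein, had levels of 11.86, 11.91 and 11.81 in Rag1-/- mice at 7 dpi, against 7.58 and 7.34 in naive ones. WT mice had 8.47, 8.27 and 8.40 at 7 dpi, against 6.23 and 6.48. The rise was 21.1-fold in Rag1-/- and 4.08-fold in WT mice, and the difference of 2.37 (SE 0.37, adjusted p = 0.00362) was called in 10 of 10 fits that left an array out and missed on the common scale only (1.5, 0.0577). The PHIL response was 1.12.

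Tagln, a smooth muscle and myofibroblast actin-binding protein, had the smallest adjusted p of the named genes. Its levels were 10.24, 9.94 and 10.04 in Rag1-/- mice at 7 dpi and 7.72, 7.96 and 7.74 in WT mice at 7 dpi. It was not detected on any naive array, so the rise was at least 10.2-fold in Rag1-/- and at least 2.92-fold in WT mice. The difference of 1.98 (SE 0.23, adjusted p = 0.000354) was kept in all 28 alternative settings that tested it, the common scale included (1.19, 0.0218), but has no bound. Tagln was the 1 of 13 tested smooth muscle and myofibroblast genes to be called (7.69%, against 1.89% of all genes called higher). The median difference of that list was -0.20.

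Tnc, the matrix glycoprotein tenascin-C of healing tissue, rose 44.7-fold in Rag1-/- and at least 9.01-fold in WT mice. The naive WT arrays did not detect it, so the difference of 1.52 (SE 0.33, adjusted p = 0.0199) could be up to 2.31, and the common scale lowered it to 0.45 (0.532). Without Rag1-/- naive replicate 1 or WT naive replicate 2 it lost its call (1.38, 0.0931 and 1.36, 0.0719). A second detected probe gave 1.68. Mmp13, a collagenase, rose at least 2.42-fold in Rag1-/- mice and had 0.25 in WT mice, a difference of at least 1.03. Its call was kept in 8 of 10 fits that left an array out and lost on the common scale (1.09, 0.0798). Eln, the gene of elastin, was called as well (1.10), whereas Dcn, the collagen-binding proteoglycan decorin, was called lower (-1.23, SE 0.31, adjusted p = 0.0353), with a second probe at -0.26. Of 10 fits that left an array out, Eln kept its call in 3 and Dcn in 3. In all, 4 of 29 tested matrix remodelling genes were called higher and 1 lower, with a median of 0.11. The shares were 13.8% higher and 3.45% lower, against 1.89% and 1.48% of all genes. Without Rag1-/- naive replicate 1 these counts were 1 and 0.

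Of 32 tested collagen formation genes, 23 rose in Rag1-/- and 17 in WT mice, against 19.3% and 16% of all genes. In the difference 1 was called in each direction (3.12% higher and 3.12% lower, against 1.89% and 1.48% of all genes). P3h2, a prolyl hydroxylase of basement membrane collagen, was called higher (1.45, adjusted p = 0.0480, without a bound since neither naive group was detected, kept in 2 of 10 fits that left an array out) and Col7a1, the collagen of anchoring fibrils, lower (-1.08, 0.0347, at most -1.01, kept in 3). Col1a1 rose 2.43-fold in Rag1-/- and 2.80-fold in WT mice, a difference of -0.21 (95% interval -1.03 to 0.62). Lox, which crosslinks collagen, rose 11.3-fold and 9.23-fold (0.29, -0.18 to 0.76). The median difference of the list was 0.30, and -0.15 under median scaling, which shifted the median of all genes to -0.36.

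Genes of dividing cells rose in both strains. Of 32 tested cell cycle genes, 29 rose in Rag1-/- and 22 in WT mice, against 19.3% and 16% of all genes. In the difference 8 were called higher, 25% against 1.89% of all genes, 0 were called lower, and 29 were positive. The 8 were Cdc20, Birc5, Kif2c, Cdk1, Plk1, Kif22, Mcm5 and E2f1, mostly genes of mitosis. The median was 0.66, against -0.0012 over all genes, 0.39 on the common scale, and above 0 under each of the 6 scaling alternatives. The counts were less firm: 2 genes were called without Rag1-/- naive replicate 1, 3 without WT naive replicate 1, up to 9 otherwise, and 1 on the common scale. Of the 32, 18 were not detected in at least 1 of the 4 groups.

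Plk1, the kinase that drives entry into and exit from mitosis, had levels of 9.10, 9.05 and 9.13 in Rag1-/- mice at 7 dpi, against 6.34 and 6.82 in naive ones. In WT mice they were 7.14, 7.32 and 7.14 at 7 dpi, against 5.97 and 6.00, which were not detected. It rose 5.71-fold in Rag1-/- and at least 1.92-fold in WT mice; the difference was 1.30 (SE 0.20, adjusted p = 0.00362), at most 1.57, and was called in 10 of 10 fits that left an array out. Cdc20, which activates the ligase that ends mitosis, had levels of 8.86, 8.92 and 8.83 in Rag1-/- and 6.98, 6.65 and 6.88 in WT mice at 7 dpi, with no naive array detected. It rose at least 4.42-fold and at least 1.49-fold, with a difference of 2.07 (SE 0.33, adjusted p = 0.00362) that held on the common scale (1.41, 0.0396) but not with the brightest probe of the gene. Its other detected probes gave 1.33 and 1.51. Birc5, the chromosome passenger survivin, had 2.06 (SE 0.37, adjusted p = 0.00734), without a bound since neither naive group was detected, lost without either Rag1-/- naive replicate (1.32, 0.165 without replicate 1 and 0.85, 0.349 without replicate 2), and 1.07 and 1.44 by its other probes. Cdk1, the kinase that starts mitosis, rose at least 3.70-fold and at least 1.5-fold (1.38, adjusted p = 0.0199, kept in 7 of 10 fits that left an array out). Cdca2, a chromatin protein of mitosis outside the list, had 1.99 (adjusted p = 0.00678), at least 0.59.

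Promoters of 3 of the called mitotic genes are shown because many genes of this phase carry TTTGAA, the core of the cell cycle genes homology region, near their start; matches on either strand are in capitals.
Cdc20, chr4:118437294-118437593, - strand: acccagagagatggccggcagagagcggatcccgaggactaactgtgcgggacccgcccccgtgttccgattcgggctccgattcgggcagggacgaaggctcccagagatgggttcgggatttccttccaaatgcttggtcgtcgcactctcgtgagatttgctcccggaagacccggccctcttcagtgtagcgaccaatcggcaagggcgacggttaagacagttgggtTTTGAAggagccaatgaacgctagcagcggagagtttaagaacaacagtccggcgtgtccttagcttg
Plk1, chr7:122159185-122159484, + strand: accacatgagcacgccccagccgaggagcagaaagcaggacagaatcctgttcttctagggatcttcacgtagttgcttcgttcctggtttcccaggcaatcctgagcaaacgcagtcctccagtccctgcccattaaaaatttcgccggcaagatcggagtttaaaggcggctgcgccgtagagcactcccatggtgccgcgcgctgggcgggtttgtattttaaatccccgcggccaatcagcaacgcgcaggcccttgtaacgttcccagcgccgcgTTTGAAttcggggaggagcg
Cdk1, chr10:69352863-69353162, - strand: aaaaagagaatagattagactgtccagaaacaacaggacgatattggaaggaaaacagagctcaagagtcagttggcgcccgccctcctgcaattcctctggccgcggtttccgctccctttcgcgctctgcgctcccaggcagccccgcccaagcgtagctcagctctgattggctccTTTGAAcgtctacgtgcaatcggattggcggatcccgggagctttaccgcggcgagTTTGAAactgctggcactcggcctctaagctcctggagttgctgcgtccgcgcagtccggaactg
The letters were in 5 of the 8 called members of the list (Cdc20, Cdk1, Kif22, Kif2c and Plk1) and in 13 of the 21 other tested members that had a window, and in 17.9% of all windows.

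Of 26 tested macrophage and monocyte genes, 24 rose in Rag1-/- and 23 in WT mice, against 19.3% and 16% of all genes. In the difference 3 were called higher (11.5%, against 1.89% of all genes) and 1 lower (3.85%, against 1.48%). Fcgr4, the activating Fc receptor of myeloid cells, rose at least 46.0-fold and at least 15.9-fold, with levels of 12.29, 12.68 and 11.77 in Rag1-/- and 10.09, 10.82 and 9.83 in WT mice at 7 dpi. Its difference of 1.79 (SE 0.46, adjusted p = 0.0408) was kept in 2 of 10 fits that left an array out and fell to 0.62 on the common scale. Trem2, the lipid receptor of phagocytes, was not detected on any naive array of either strain, and rose at least 4.40-fold in Rag1-/- and at least 1.82-fold in WT mice. Its fitted difference of 1.18 (adjusted p = 0.0258) has no bound, and the call was kept in 6 of 10 fits that left an array out. Cd53, a leukocyte tetraspanin, was called too (1.36, 0.0354, at most 2.44), but in only 2 of 9 fits that tested it with an array left out. Gpnmb was called lower. The median of the list was 0.41 but -0.01 on the common scale and -0.00 under median scaling, and without Rag1-/- naive replicate 1 or WT naive replicate 1 the calls were 0 in either direction. In bulk muscle, fewer cells of a type and less RNA per cell cannot be told apart.

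Xcl1, the chemokine lymphotactin that NK cells and CD8 T cells secrete, was detected, among the 4 groups compared, in Rag1-/- mice at 7 dpi alone, on 3 of 3 arrays. Outside these groups it was detected on 3 of 3 Rag1-/- arrays at 2 dpi (mean 7.29), on 1 of 3 WT arrays at 2 dpi and on 1 of 3 PHIL arrays at 7 dpi. Its levels in Rag1-/- mice at 7 dpi were 8.04, 8.17 and 7.62, against 4.86 and 5.0 in naive Rag1-/- mice. In WT mice all 5 arrays lay between 4.48 and 5.22 and none was detected. The rise in Rag1-/- mice was at least 2.33-fold, and the difference of 2.44 (SE 0.39, adjusted p = 0.00362) was called in all 27 alternatives that tested it but has no bound, since WT mice gave no measured level. Among 7 tested NK and cytotoxic genes it was the only one called (14.3%, against 1.89% of all genes called higher). Nkg7 and Ctsw, of cytotoxic granules, rose in both strains and had differences of -0.13 and -0.22, neither with a bound. H2-D1 is a classical class I gene whose probe could also catch near-identical class I genes. It was the 1 of 20 class I presentation genes called (5%, against 1.89% of all genes called higher), with a list median of 0.00. It was detected on 3 of 3 Rag1-/- arrays and 1 of 3 WT arrays at 7 dpi and on no naive array of either strain. It rose at least 2.66-fold in Rag1-/- mice, and the fitted difference of 1.87 (SE 0.34, adjusted p = 0.00689) has no bound. Cfb, complement factor B, had 1.45 (adjusted p = 0.0353), without a bound since it was detected neither in naive Rag1-/- mice nor in WT mice at 7 dpi or naive. Its call was kept in 2 of 10 fits that left an array out.

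Both naive groups failed to detect 4 further genes of large difference. Chst2, a sulfotransferase that builds selectin ligands, rose at least 7.21-fold in Rag1-/- and at least 2.16-fold in WT mice (2.20, SE 0.29, adjusted p = 0.00184). Igfbp2, a binding protein of insulin-like growth factors, rose at least 17.5-fold and at least 3.20-fold (2.00, SE 0.33, 0.00447), and its second probe gave 2.65. Slc2a10, a facilitative sugar transporter, rose at least 3.71-fold in Rag1-/- mice (2.13, SE 0.30, 0.00240), whereas its second probe gave -0.41. Kif5c, a kinesin heavy chain, had 1.70 (0.00678). The 4 calls were kept in 10 of 10 fits that left an array out.

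Genes called lower held enzymes of sterol synthesis that rose in both strains, less in Rag1-/- mice. Sqle, squalene epoxidase, had levels of 12.07, 12.11 and 11.97 in Rag1-/- mice at 7 dpi, against 8.67 and 8.29 in naive ones. WT mice had 11.16, 11.13 and 11.07 at 7 dpi, against 6.21 and 5.92, of which 1 was detected. The rise was 11.9-fold in Rag1-/- and 33.1-fold in WT mice, a difference of -1.48 (SE 0.31, adjusted p = 0.0196) that was -2.18 (0.00273) on the common scale. A second probe, detected on 4 of 8 Rag1-/- and 6 of 16 WT and PHIL arrays, gave 0.03. The call was lost without Rag1-/- naive replicate 1 (-1.31, 0.0931) or WT naive replicate 2 (-1.32, 0.0703).

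Hsd17b7, of a later step from lanosterol to cholesterol, had levels of 10.82, 10.62 and 10.86 in Rag1-/- mice at 7 dpi, against 9.84 and 9.60 in naive ones, and 10, 9.92 and 9.98 in WT mice at 7 dpi, against 7.93 and 7.85. It rose 2.06-fold in Rag1-/- and 4.22-fold in WT mice (-1.04, SE 0.20, adjusted p = 0.0125), with a PHIL response of 1.58, and lost its call only without Rag1-/- naive replicate 1 (-0.92, 0.0714) among the 29 alternatives. Of 15 tested cholesterol synthesis genes 12 rose in Rag1-/- and 13 in WT mice, against 19.3% and 16% of all genes. These 2 were called lower, 13.3% against 1.48% of all genes, and the median was -0.29, below 0 under each scaling alternative. Msmo1 (-0.62) and Cyp51 (-0.41) were not called, and Pmvk had 0.88.

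Gpnmb, a glycoprotein of macrophages that have taken up lipid or debris, had levels of 11.83, 11.73 and 11.79 in Rag1-/- mice at 7 dpi, against 9.54 and 8.83 in naive ones. WT levels were 11.46, 11.46 and 11.23 at 7 dpi, against 7.08 and 7.56. It rose 6.07-fold in Rag1-/- and 16.7-fold in WT mice (-1.46, SE 0.29, adjusted p = 0.0128; -1.97, 0.00273 on the common scale), and lost its call without Rag1-/- naive replicate 1 (-1.12, 0.0835) or WT naive replicate 1 (-1.21, 0.0669). Lgals3, the macrophage galectin, had 2.83 in Rag1-/- and 3.67 in WT mice and was called on the common scale only (-1.40).

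Genes of oxidative metabolism were called lower after falls in Rag1-/- muscle. Idh2, mitochondrial isocitrate dehydrogenase, had levels of 12.32, 12.30 and 12.86 in Rag1-/- mice at 7 dpi, against 13.73 and 13.55 in naive ones. WT mice had 9.66, 9.89 and 10.05 at 7 dpi, against 9.85 and 9.92. It fell 2.21-fold in Rag1-/- mice, below both naive values in each mouse, and the WT groups overlapped. The difference was -1.12 (SE 0.24, adjusted p = 0.0199), and -0.90 (0.0650) on the common scale; it lost its call without Rag1-/- naive replicate 1 (-1.02, 0.0931) or WT naive replicate 1 (-1.08, 0.0610). The PHIL response was -0.80.

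Of 26 tested genes of the TCA cycle and pyruvate entry, 17 fell and 0 rose in Rag1-/- mice, while 4 fell and 1 rose in WT mice; of all genes 18% fell in Rag1-/- and 11.2% in WT mice. In the difference 4 were called lower, 15.4% against 1.48% of all genes, and 0 higher, and 2 members had a positive difference. The 4 were Idh2, Idh3g (-0.83), Mdh1 (-0.82) and Cs, citrate synthase (-0.62), though a second probe of Idh3g gave -0.03. Of 10 fits that left an array out, Mdh1 kept its call in 2 and Cs in 4. The median was -0.40, and -0.24 on the common scale, where none was called. With an array left out between 1 and 4 were called, and 1 without Rag1-/- naive replicate 1 or 2 or WT naive replicate 1.

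Among 39 tested genes of fatty acid uptake and oxidation, 24 fell in Rag1-/- and 8 in WT mice, and 2 rose in each. Of all genes 18% fell in Rag1-/- and 11.2% in WT mice. Hadhb, a subunit of the trifunctional protein, had levels of 12.09, 12.02 and 12.31 in Rag1-/- mice at 7 dpi, against 13.28 and 13.04 in naive ones, and 9.79, 10.38 and 10.40 in WT mice at 7 dpi, against 10.31 and 10.12. It fell 2.03-fold in Rag1-/- mice (difference -1.0, SE 0.22, adjusted p = 0.0220). Acat1, of ketone body and isoleucine breakdown, had -1.22 (at most -0.82, 0.0249), and Etfdh, which passes electrons from fatty acid oxidation on, -0.68 (0.0471). Of 10 fits that left an array out, Hadhb kept its call in 7, Acat1 in 7 and Etfdh in 2. Acadl, the long-chain acyl-CoA dehydrogenase, had -1.07 (0.0292), but a second probe detected on all 24 arrays gave -0.39. A further probe, detected on no WT or PHIL array, gave -0.15. Without Rag1-/- replicate 1 at 7 dpi Acadl had -0.67 (adjusted p = 0.435). Hadhb, Acat1, Etfdh and Acadl were the 4 called lower, 10.3% against 1.48% of all genes. In all 0 were called higher, and the median was -0.38 (-0.24 on the common scale). Without Rag1-/- naive replicate 1, or with the level of Eif2s3y as a covariate, 0 were called. Respiratory chain and ATP synthase genes had a median of -0.04, with 1 of 64 called, Ndufs4 (-0.83, adjusted p = 0.0494). That is 1.56% called lower, near the 1.48% of all genes. Its 3 other probes, detected on all 24 arrays, gave -0.82, -0.39 and -0.12, and the call was kept in 2 of 10 fits that left an array out. Adipocyte genes averaged 8.995 on Rag1-/- replicate 3 at 7 dpi, against 10.02 and 10.05 on the other 7 dpi arrays of the strain and 10.13 and 10.04 on its naive arrays. Without that replicate 5 fatty acid genes were called lower, with a median of -0.41.

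Of 44 tested mature muscle genes, 24 fell in Rag1-/- and 7 in WT mice, against 18% and 11.2% of all genes. The median difference was -0.22, and 3 were called lower, 6.82% against 1.48% of all genes. Atp2a2, the calcium pump of slow fibres, fell 1.99-fold in Rag1-/- mice (-1.07, SE 0.27, adjusted p = 0.0347), but a second probe detected on all arrays gave -0.03. Myot, the Z-disc protein myotilin, fell 2.15-fold (-0.68, 0.0471). Of 10 fits that left an array out, Atp2a2 kept its call in 2 and Myot in 1. Tpm3, slow tropomyosin, had a fitted difference of -1.55 (0.0211), at most -0.96 because naive WT mice did not detect it. Its 4 probes gave between -1.55 and -0.29. The probe at -0.29, detected on all arrays, rose in both strains (0.77 in Rag1-/- and 1.06 in WT mice). Atp2a2, Myot and Tpm3 were the 3 called. The count was 0 without Rag1-/- replicate 1 of either time or WT naive replicate 1, and on the common scale. Acta1 (0.09) and Ckm (-0.04) did not pass. Among 18 tested glycogen genes 1 was called lower, 5.56% against 1.48% of all genes. It was Phka1, a subunit of phosphorylase kinase (-1.26, 0.0459), kept in 3 of 10 fits that left an array out. Of the 4 groups, naive Rag1-/- mice alone detected it.

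Vascular genes fell in both strains, 19 of 28 in Rag1-/- and 14 of 28 in WT mice, and their median difference was -0.01, with 2 called lower and 0 without Rag1-/- naive replicate 1. Ptprb, the endothelial phosphatase that restrains Tie2 signalling, fell 2.41-fold in Rag1-/- mice (-1.06, SE 0.22, adjusted p = 0.0165, lost without Rag1-/- naive replicate 1, -0.96 and 0.0864), and Prox1, the transcription factor of lymphatic identity that slow muscle also expresses, fell 2.72-fold (-1.17, 0.0259). These 2 vascular genes were 7.14% of the list, against 1.48% of all genes called lower. Of all genes 18% fell in Rag1-/- and 11.2% in WT mice. Vegfa, the angiogenic factor, fell 1.83-fold in Rag1-/- mice (-1.28, 0.0323), with a second probe at -0.35. Nr1d2, a clock repressor, fell 2.42-fold in Rag1-/- mice (-1.10, 0.0249). The PHIL response of Nr1d2 was -1.09 and its WT response -0.17. Of 10 fits that left an array out, Vegfa kept its call in 6 and Nr1d2 in 7.

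Of other called genes, Ckmt1, Pias4 and Polr3e passed as rises in WT mice with no call in Rag1-/-. Naive WT arrays detected none of them, so the WT response was at least -0.16 for Pias4 and at least -0.06 for Polr3e. Notch1, Kif1b, Cc2d2a, Rbfox1, Gzf1, Ppp1cb and Necab1 fell in Rag1-/- mice with no call in WT. Their PHIL responses, not called different from WT, were -1.22, -0.29, -0.93, -0.53, -0.56, -0.56 and -0.81 in the order named. Ckmt1, the ubiquitous mitochondrial creatine kinase, rose at least 2.55-fold in WT mice and had 0.04 in Rag1-/- mice (-1.57, at most -1.31, adjusted p = 0.0128; called on the common scale, and missed without Rag1-/- naive replicate 1 at 0.0508 or WT naive replicate 1 at 0.0527). Pias4, a SUMO ligase that inhibits STAT signalling, had -1.44 (SE 0.22, 0.00362), kept in 10 of 10 fits that left an array out, though its bound is at most -0.26; its response was -0.42 in Rag1-/- and 1.02 in WT mice, whose naive arrays did not detect it. Notch1, the cell contact receptor, fell 2.20-fold in Rag1-/- mice (-1.54, 0.0323, at most -1.03, kept in 3 of 10). The remaining genes named for the size of their difference were Kif1b, Cc2d2a, Rbfox1, Gzf1, Ppp1cb, Polr3e and Necab1, between -1.5 and -1.35; the second detected probe of Gzf1 gave 0.03 and that of Rbfox1 -0.19, that of Ppp1cb -1.01, and other detected probes of Kif1b gave -0.85 to -0.02. An undetected group left Gzf1 at most -0.79, Rbfox1 at most -0.81 and Polr3e at most -0.42. Without WT naive replicate 1 Polr3e had -0.76 (adjusted p = 0.208). Of the 10 fits that left an array out, Necab1 kept its call in 9, Gzf1 in 8, Cc2d2a in 6, Rbfox1 in 5, Ppp1cb and Polr3e in 3 and Kif1b in 1. The most negative difference of a called gene was that of the RNA helicase gene Ddx21 (-1.75, at most -0.41, adjusted p = 0.0105), which falls outside the rule for named genes because neither WT group was detected on all of its arrays.

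**Figure D3:**
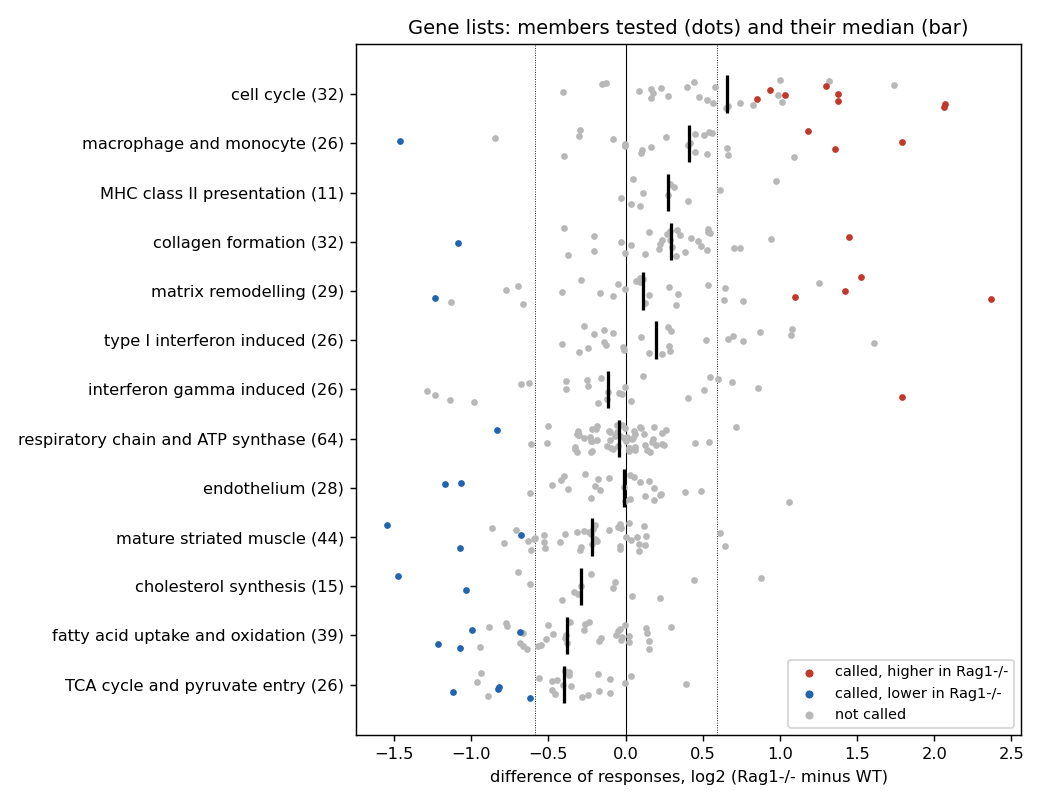
Difference of responses (log2, Rag1-/- minus WT) of each tested member of 13 gene lists, with the number tested in parentheses, the list median as a black bar and dotted lines at the 1.5-fold threshold. Red and blue dots are genes called higher and lower in Rag1-/-; the cell cycle list lies to the right (median 0.66), and the TCA cycle (-0.40) and fatty acid (-0.38) lists to the left.

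Genes induced by interferon gamma, a product of T and NK cells, rose in both strains, 21 of 26 in each. Of all genes 19.3% rose in Rag1-/- and 16% in WT mice. Cxcl9, a chemokine that attracts T cells, had levels of 11.65, 11.88 and 11.50 in Rag1-/- mice at 7 dpi, against 8.07 and 8.29 in naive ones. In WT mice they were 11.21, 12.25 and 10.92 at 7 dpi, against 7.92 and 7.77. It rose 11.3-fold in Rag1-/- and 12.3-fold in WT mice, a difference of -0.12 with a 95% interval from -1.09 to 0.85. The interval of Igtp, a GTPase that disrupts parasite vacuoles, was -1.42 to 0.65, that of Irgm2 -1.46 to 0.21, that of the transcription factor Irf1 -0.82 to 0.82 and that of Gbp2 -0.97 to 0.93. Each interval reached 1.5-fold in at least 1 direction, so a difference of that size cannot be told from none at this number of arrays. The PHIL responses, not called different from WT, were 5.01, 4.43, 3.53, 1.82 and 2.91 in the order named. Other detected probes of Irf1 gave -0.89, -0.43 and -0.18, and a second of Gbp2 gave -0.34. A further Gbp2 probe, detected on no WT or PHIL array, gave 1.99. The list median was -0.12, and -0.42 on the common scale. The difference was positive for 9 of 26 members, and 17 were not detected in at least 1 of the 4 groups. Fcgr4 was the 1 called member of the list (3.85%, against 1.89% of all genes called higher). WT replicate 2 at 7 dpi was the highest of the 3 WT mice for all 5. Cxcl10, also named by the study, had -1.14 (95% interval -2.27 to -0.0023) and was not called. Naive WT mice did not detect it, so its difference was at most 0.42.

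The MHC class II presentation, type I interferon and type 2 cytokine lists held 2 called genes in all. Of 11 MHC class II presentation genes, 10 rose in each strain, against 19.3% of all genes in Rag1-/- and 16% in WT mice. In the difference 0 were called (median 0.27, and -0.26 on the common scale). The lowest p of the list was that of Ifi30, a lysosomal thiol reductase (0.97, adjusted p = 0.0688). Of 26 type I interferon genes 13 rose in Rag1-/- and 10 in WT mice, and 0 were called, the largest being Irf7 (1.61, adjusted p = 0.0933). Among 8 tested genes of the type 2 cytokine and chemokine list, the 2 called were Cish and Socs3 (25%, against 1.89% of all genes called higher). Both encode signalling inhibitors, not cytokines. The list median was 0.03, with 4 of 8 positive, and -0.20 on the common scale. Retnla, of alternatively activated macrophages, had 0.13 (-0.96 to 1.22). Mesothelial genes had the lowest median of the lists with over 1 tested gene, -0.53, with 0 of 13 above 0 and 0 called. Their mean level was 7.55 on Rag1-/- replicate 3 at 7 dpi, against 8.41 on both others. With an array left out the list median lay between -0.65 and -0.25. Whether the amount of mesothelium in a sample accounts for this difference was not tested.

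**Figure D4:**
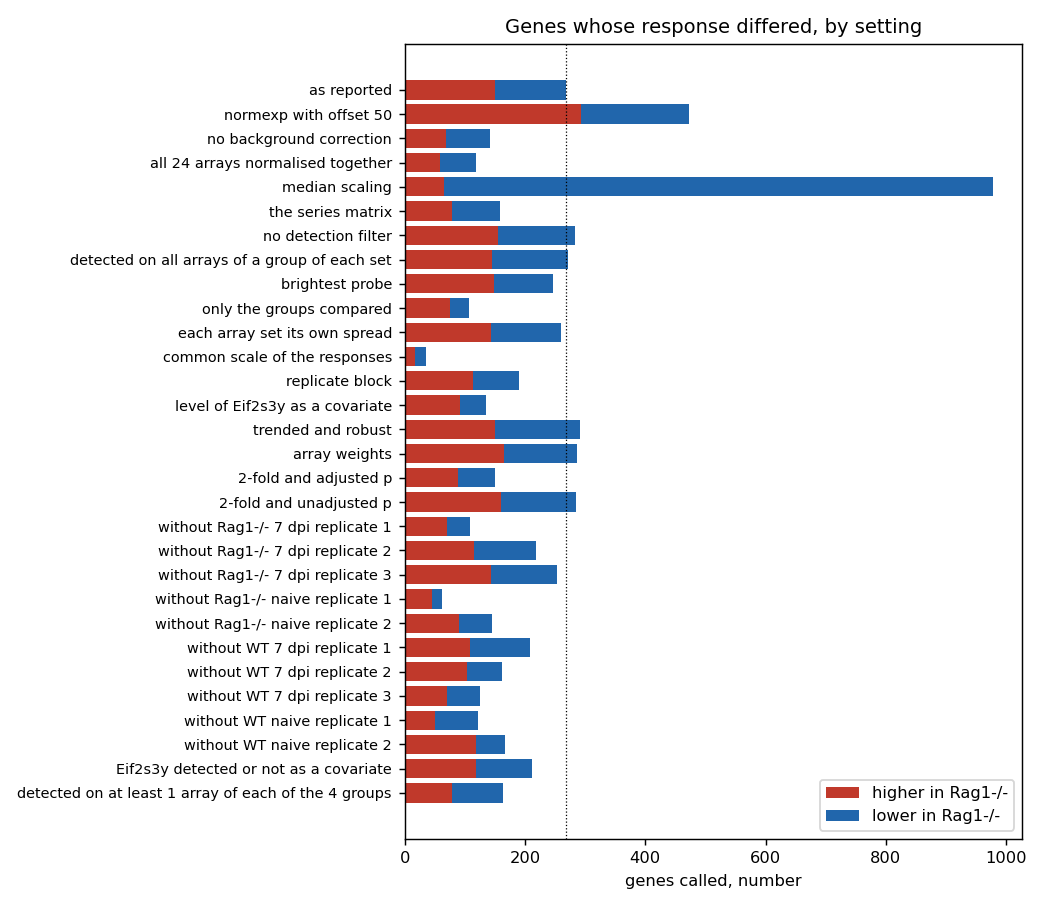
Number of genes called in the difference of responses under each setting, from the fit as reported at the top (269, dotted line) through alternative processing and fits that leave out 1 array to 2 settings added after the data were seen. Bars add genes higher (red) and lower (blue) in Rag1-/-; the common scale leaves 35, leaving out Rag1-/- naive replicate 1 leaves 62, and median scaling gives 978, of which 912 are lower.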

How the data were processed

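Diaphragm RNA was hybridised to Illumina MouseRef-8 v2.0 BeadChips. The authors deposited mean bead intensity per probe (GenomeStudio 1.8, not normalised) with a detection p-value, and a table of normalised intensities on a linear scale (the methods name a lumi pipeline with spline normalisation, without tying it to this table), used as an alternative after taking log2. Background was estimated from detection p-values (normexp, offset 16), and the corrected values were taken to log2. Arrays were then brought to equal quantiles. Each step was done separately for the 8 Rag1-/- and the 16 WT and PHIL arrays. Annotation named 1 gene for 23978 of 25697 probes, and symbols were updated through RefSeq. Each gene was represented by its detected probe of highest interquartile range. All 24 arrays in 9 groups were fitted together with limma 3.58.1 in R 4.3.3 (residual df 15); standard errors and 95% intervals are those of the moderated fit. The fit was tested on simulated data. The 2-fold threshold of the methods was an alternative.

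Genes were named by rule: the 12 largest called differences in each direction among genes well detected in both strains, up to 4 called members of each of 41 lists (the member of lowest p where none was called), and genes the study names. Genes named beyond it (Eln, Ltbr, Ddx21, Lgals3, Nkg7, Ctsw, Msmo1, Cyp51, Pmvk, Kif2c, Kif22, Mcm5 and E2f1, and the marker genes) were chosen after their values were seen. The comparison, the lists and the rule were chosen with earlier results of these data known. Replicates were separate mice. Groups of 2 and 3 arrays limit the precision.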

Additional observations from a re-analysis of the deposited data

Results flagged for a closer look

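The responses of the strains differed, by the test of the difference itself, for 269 genes. Each value below is the Rag1-/- response minus the WT response on the log2 scale for a named gene that passed that test.

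Among genes higher in Rag1-/- mice, the difference was 3.09 for Cish, 2.44 for Xcl1, 2.37 for Ccn5, 2.20 for Chst2, 2.13 for Slc2a10, 2.07 for Cdc20, 2.06 for Birc5, 2.00 for Igfbp2, 1.99 for Cdca2 and 1.98 for Tagln. It was 1.87 for H2-D1, 1.86 for Ret, 1.79 for Fcgr4, 1.70 for Kif5c, 1.52 for Tnc, 1.45 for Cfb, 1.45 for P3h2, 1.42 for Mmp13, 1.38 for Cdk1 and 1.36 for Cd53. The smallest were 1.30 for Plk1, 1.22 for Socs3, 1.18 for Trem2, 1.01 for Ier3 and 0.69 for Edem2.

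Among genes lower in Rag1-/- mice, the difference was -1.57 for Ckmt1, -1.55 for Tpm3, -1.54 for Notch1, -1.5 for Kif1b, -1.49 for Cc2d2a, -1.48 for Sqle, -1.46 for Gpnmb, -1.45 for Rbfox1, -1.44 for Pias4, -1.42 for Gzf1, -1.39 for Ppp1cb, -1.37 for Polr3e and -1.35 for Necab1. It was -1.28 for Vegfa, -1.26 for Phka1, -1.23 for Dcn, -1.22 for Acat1, -1.17 for Prox1, -1.12 for Idh2, -1.10 for Nr1d2, -1.08 for Col7a1, -1.07 for Acadl, -1.07 for Atp2a2, -1.06 for Ptprb, -1.04 for Hsd17b7 and -1.0 for Hadhb. The smallest were -0.83 for Idh3g, -0.83 for Ndufs4, -0.82 for Mdh1, -0.68 for Myot, -0.68 for Etfdh and -0.62 for Cs.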

How the results depend on the processing

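The 269 genes called between the Rag1-/- and WT responses became 472 with a normexp offset of 50, 142 without background correction, 118 with all 24 arrays normalised together, 158 in the authors' normalised values, 107 with only the compared groups in the fit, 35 on the common scale, 135 with the level of Eif2s3y as a covariate and 150 at 2-fold. Median scaling moved the median of all genes to -0.36 and called 978, of which 66 were higher and 912 lower, against 151 and 118. Requiring detection in each of the 4 groups, added after the data were seen, left 164. With 1 array left out the counts ran between 62 and 253, without Rag1-/- naive replicate 1 and without Rag1-/- replicate 3 at 7 dpi. The other 9 settings gave 190 to 291. The labels tie same-numbered arrays by number only. Correlations of their deviations between naive and 7 dpi were 0.12 and 0.14 in Rag1-/- and -0.08 and -0.14 in WT mice. The deviations of 2 naive arrays mirror each other, so these values cannot show whether the numbers mark a shared batch. A fit with the replicate number as a block called 190, with 146 genes in common.

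The Rag1-/- response changed 2977 genes, and 1643 without background correction, 1656 in the authors' values, 1373 at 2-fold, 1376 at 2-fold with unadjusted p, and 2782 to 3085 with an array left out. The WT response changed 2169 genes, and 1133, 1144, 803 and 806 under the same settings, and 1789 to 2248. The PHIL against WT difference had 0 genes, 1 on the common scale, 1 with a trended and robust prior, 1 with detection in each of the 4 groups, 72 at 2-fold with unadjusted p, and 0 to 7 with an array left out. Of the named genes that were called Gzf1 alone lost its sign, at 0.0435 without background correction, 0.0546 in the authors' values and 0.0332 with the brightest probe. The cause of these changes was not tested. Across all settings, 445 values of single named genes lost a call, 39 gained one and 2285 kept their side of the threshold.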
